A study of Homo sapiens with 12 samples.

Results

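The nuclear pore and nuclear transport genes were followed on 12 arrays of messenger RNA (mRNA) precipitated from MDA-MB-231 cells. Members were chosen by name: every gene with a probe set of its own whose symbol begins with NUP, KPNA, KPNB, IPO, XPO or TNPO followed by a number (or XPOT), together with TPR, RANBP2, CSE1L, RAN, NXF1 and NXT1. The name rule found 106 of 19064 single-gene probe sets, which stand for 47 of 11963 genes. The family itself was selected on earlier antibody differences in these same arrays, so the antibody comparison below is a description, in which calls are counted and no p is given. NXF1 was not analysed here, and 1 probe set that reads both IL4I1 and NUP62 was left out.

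MDA-MB-231 is a human breast cancer line that lacks the hormone receptors and has a mesenchymal character. Cells were untreated or were irradiated with 2 Gy of X-rays and collected 6 h later, and each lysate was precipitated with control IgG or with an antibody to eIF4E, the protein that binds the mRNA cap at the start of translation. Both treatments crossed with both antibodies give 4 groups of 3 arrays. All came from this 1 line by the same RIP-chip kit (ribonucleoprotein immunoprecipitation read on an array), and the design text calls the replicates biological without naming cultures or days, so p-values measure the spread between these arrays.

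The nuclear pore is a ring of repeated protein complexes set in the nuclear envelope. Its scaffold is made of the Y complex and the inner ring, and nucleoporins rich in phenylalanine and glycine (FG nucleoporins) fill the channel, while filaments reach into the cytoplasm and a basket reaches into the nucleus. Importins and exportins of the karyopherin beta family carry cargo through it, importin alpha adapters link cargo to importin beta, and the GTPase RAN sets the direction, being bound to GTP in the nucleus and to GDP in the cytoplasm. XPO1, an exportin, also carries eIF4E and a subset of mRNAs out of the nucleus.

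The values are signals on a linear scale, set by the authors' processing so that the trimmed mean of each array is 500.2. A signal is therefore relative to the other mRNAs of the same precipitate, and a lower signal on eIF4E arrays does not say how much RNA was recovered. Each array also averages all cells, so that fewer cells holding an mRNA and less of it per cell cannot be told apart. Differences are given on the scale log2(signal + 16) with the standard error (SE) of a fit over all 12 arrays, and folds are on that scale too. Of the 47 genes, 44 passed a filter on dim genes, which kept 7178 genes of the array. The filter used the mean of log2(signal + 16) over all arrays, and its limit corresponds to a signal of 57.4. IPO8, KPNA5 and NUP210 did not pass. On untreated IgG arrays their group means were 59.3 ± 31.1, 13.4 ± 21.0 and 21.3 ± 17.5 (SD, n = 3) in that order, and on untreated eIF4E arrays 19.9 ± 5.42, 15.5 ± 9.71 and 46.9 ± 4.22, where the median of 11 genes of other tissues ranged over the arrays from 7.43 to 26.2.

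The line's own markers MSN, CD44, AXL, VIM and CAV1 had mean signals between 3296 and 16676, and 6 luminal breast markers lay between 4.51 for PGR and 922.6 for GATA3. Both kinds of precipitate differed in measures that do not involve the transport genes. The Alu control probe set read 36876 to 53246 on IgG arrays and 13482 to 18476 on eIF4E arrays, the 3'/5' signal ratio of actin 2.96 to 5.38 against 1.33 to 1.53, and that of GAPDH 2.03 to 2.78 against 1.13 to 1.31. Their part in the antibody differences below was not tested. Among the 12 arrays, irradiated IgG replicate 1 stood apart for the transport genes. Within its own group of 3 arrays it held the highest signal for 27 of the 44 members (61.4%), against 2460 of 7178 genes (34.3%). Over all 12 arrays it was highest for 23 members (52.3%) and 1308 genes (18.2%). The antibody differences by which the family was selected enter those last shares. The values of irradiated IgG replicate 1 entered that selection, so the share within its own group is not independent of it either. The same array also had the highest actin 3'/5' ratio, 5.38, the highest GAPDH 3'/5' ratio, 2.78, and the highest Alu signal, 53246. The signal ratio of the control probe sets bioB over bioC was 0.349 to 0.398 on the 4 arrays numbered replicate 1. It was 0.0199 to 0.0385 on the 4 numbered replicate 2 and 0.0476 to 0.0567 on the 4 numbered replicate 3. The replicate numbers thus did not overlap in this ratio. The part of these measures in the members' values was not tested.

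The start of an mRNA is where eIF4E binds, so the windows at the listed transcription starts are shown for the member lowest on eIF4E arrays (TPR), the pair of members whose start begins as a terminal oligopyrimidine (TOP) tract does (IPO7 and NUP133) and 3 members higher on eIF4E arrays (RAN, NUP37 and NXT1). Each window is 30 bases, 10 before the start and 20 from it, written 5′ to 3′ on the gene's strand, and the capitals mark the first 5 transcribed bases, in which the tract was searched as C followed by 4 bases that are each C or T, on the gene's strand only and as the 1 motif searched. The sequences are RefSeq's for GRCh38.p14, and they lie at the following places: TPR at chr1:186375234-186375263 (minus strand), IPO7 at chr11:9384642-9384671 (plus), NUP133 at chr1:229508322-229508351 (minus), RAN at chr12:130872056-130872085 (plus), NUP37 at chr12:102120095-102120124 (minus) and NXT1 at chr20:23350781-23350810 (plus). All 6 span the boundary of the promoter and the first exon.
TPR: tgcgcgcgcaCTTCGgtcgcgggcggtgag
IPO7: gcttctctttCCTTTcgcgccggttgccgc
NUP133: cgcgcgccatCTCTTcccttaggtgtttaa
RAN: tccggcgtttGAATTgcgcttccgccatct
NUP37: aagcagagccACAGCgcgtcgcggcagccc
NXT1: cggggcgctcGCGTCtgcgtggagaccggc

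A window was held for 40 of the 44 measured members, taking the first listed start where a gene had several. The tract's letters were at the start of IPO7 and NUP133, which is 5% of the 40, against 345 of 6055 measured genes with a window (5.7%) and 4.04% of all 27305 windows. A C as the first base, in any context, was found for TPR, IPO7 and NUP133, 7.5% of the members and 12% of the measured genes. The share of members with the tract was thus near that of the array. These letters come from 1 listed start per gene and do not say which start the cells used.

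Most transport mRNAs were less abundant in the eIF4E precipitates, relative to other mRNAs, than in the IgG precipitates. Averaged over both treatments, 31 of the 44 members were lower and 5 were higher at an adjusted p under 0.05 (limma, Benjamini-Hochberg adjustment over 7178 genes), which is 70.5% and 11.4% of them. Among all genes tested 38.2% were lower and 32.5% were higher in the same comparison. The median difference of the members was −0.90 and that of all genes −0.07, and the members ranged from −2.29 for TPR, the filament protein of the nuclear basket, to 1.69 for NXT1, a cofactor of mRNA export. Because the family was picked with such differences in view, nothing is read from these shares, nor from the counts by role below. Of the 44, 19 were lower by a factor of at least 2 and 1, NXT1, was higher by that factor. Of all 7178 genes, 999 were lower and 882 higher by that factor. Counted without any model, the 6 eIF4E arrays and the 6 IgG arrays did not overlap for 34 members, 30 lower and 4 higher. Of all 7178 genes 49.9% did not overlap, 1918 lower and 1661 higher.

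**Figure D1:**
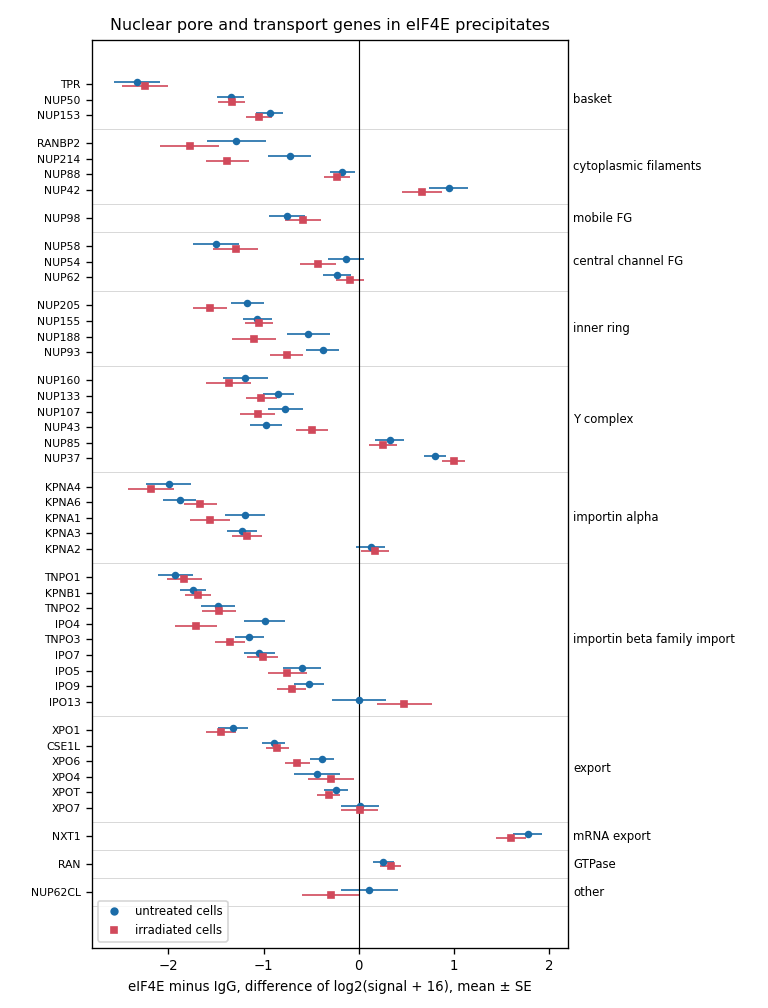
Difference of each of 44 transport genes between eIF4E and IgG precipitates on the log2(signal + 16) scale, in untreated cells (blue circles) and irradiated cells (red squares), with the SE of the fit, grouped by role. Most points lie left of 0, from TPR at −2.33 and −2.25 to NXT1 at 1.77 and 1.60. Both treatments gave the same sign for 43 of the 44, a count not made for all genes.

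All 3 basket members were lower on eIF4E arrays, where 38.2% of all genes were lower, with a median difference of −1.34. TPR, which forms the basket's filaments, read 1989, 2188 and 1439 on untreated IgG arrays, 3669, 1479 and 2145 on irradiated IgG arrays, 370.1, 363 and 329 on untreated eIF4E arrays and 464, 480.2 and 450.3 on irradiated eIF4E arrays. Every eIF4E array was below every IgG array, with irradiated IgG replicate 1 the highest of all, and the difference was −2.29 ± 0.17 (SE), a factor of 4.89. Its second probe set gave −1.04 ± 0.18 (SE), a factor of 2.06, and −0.50 in untreated cells, where it did not pass. NUP153, an FG nucleoporin that anchors the basket, read 2289, 2903 and 3025 on untreated IgG arrays and 3205, 2659 and 2815 on irradiated IgG arrays, and 1347, 1515 and 1382 on untreated eIF4E arrays and 1439, 1413 and 1312 on irradiated eIF4E arrays. Its groups also stood apart, at −0.99 ± 0.10 (SE). NUP50, a basket FG protein that helps release cargo from importin alpha, read 1987, 1923 and 2055 on untreated IgG arrays, 1583, 1908 and 2322 on irradiated IgG arrays, 755, 792 and 769.8 on untreated eIF4E arrays and 720.5, 777 and 751 on irradiated eIF4E arrays. The eIF4E values lay within a narrow band below all IgG values, at −1.34 ± 0.10 (SE).

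The 4 cytoplasmic filament members went both ways, with 2 lower and 1 higher, where 38.2% and 32.5% of all genes were. RANBP2, the large filament protein that binds RAN and has SUMO ligase activity, read 620.1, 556 and 369 on untreated IgG arrays and 1504, 486 and 752 on irradiated IgG arrays. On eIF4E arrays it read 166, 267 and 171 in untreated cells and 239.5, 256 and 194 in irradiated cells. No arrays of the antibodies overlapped, and the difference was −1.53 ± 0.22 (SE), the widest error among the 44 members. RANBP2 shares near-identical sequence with copies of the RGPD family, so its signal may hold theirs. NUP214, which docks the mRNA helicase at the cytoplasmic face, read 294, 202 and 180.3 on untreated IgG arrays, 388, 292 and 307 on irradiated IgG arrays, 123, 123 and 136 on untreated eIF4E arrays and 131, 84.5 and 138 on irradiated eIF4E arrays. It was lower, at −1.05 ± 0.16 (SE), −0.73 in untreated and −1.38 in irradiated cells. NUP42, a small FG protein of the same face that works with the helicase activator GLE1, read 110.3, 189.7 and 189 on untreated IgG arrays and 226, 158 and 195 on irradiated IgG arrays against 347, 321 and 292 on untreated eIF4E arrays and 334, 291 and 309.8 on irradiated eIF4E arrays. Here all eIF4E arrays were above all IgG arrays, by 0.80 ± 0.15 (SE), a factor of 1.74. NUP88, the partner of NUP214, did not pass, at −0.20 ± 0.10 (SE).

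Of the 3 FG nucleoporins of the channel 1 was lower, NUP58, where 38.2% of all genes were. The mobile FG nucleoporin NUP98 was lower too. NUP62, the central FG protein of the channel, read 1544, 1587 and 1456 on untreated IgG arrays, 1819, 1239 and 1558 on irradiated IgG arrays, 1204, 1311 and 1388 on untreated eIF4E arrays and 1451, 1450.1 and 1382 on irradiated eIF4E arrays. The groups overlapped, and its difference of −0.16 ± 0.10 (SE) did not pass, though it was past the threshold at −0.23 without irradiated IgG replicate 2, and the mean of its probe sets gave 0.093. NUP58, a partner of NUP62 in the same complex, read 460.0, 249 and 286 on untreated IgG arrays and 216, 313 and 272 on irradiated IgG arrays and 79.6, 124 and 109.8 on untreated eIF4E arrays and 103, 92.4 and 99.5 on irradiated eIF4E arrays. That is −1.40 ± 0.17 (SE) with no overlap, while NUP54, the other member of this complex, did not pass at −0.28 ± 0.13 (SE). NUP98, a mobile FG protein found on both faces of the pore, read 821, 773 and 763 on untreated IgG arrays, 608, 644 and 647 on irradiated IgG arrays, 318, 587 and 518 on untreated eIF4E arrays and 409, 459 and 384 on irradiated eIF4E arrays. All its eIF4E values were below its IgG values, but the highest of them, 587, came close to the lowest IgG value, 608, and the difference was −0.67 ± 0.13 (SE).

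In the scaffold, all 4 inner ring members and 4 of 6 Y complex members were lower, and the other 2 of the Y complex were higher. Of all genes 38.2% were lower and 32.5% higher. NUP205, a large inner ring subunit, read 1076, 1039 and 1018 on untreated IgG arrays, 2222, 1306 and 1424 on irradiated IgG arrays, 430.5, 516 and 424 on untreated eIF4E arrays and 521, 553 and 525 on irradiated eIF4E arrays. The groups stood well apart at −1.37 ± 0.12 (SE), a factor of 2.58, and NUP155, NUP188 and NUP93 followed at −1.06 ± 0.10, −0.81 ± 0.16 and −0.57 ± 0.12 (SE). NUP93, the linker of the inner ring and its least lowered member, read 880.1, 949 and 883 on untreated IgG arrays and 1539, 1008 and 1059.5 on irradiated IgG arrays, and 607, 786 and 692 on untreated eIF4E arrays and 588, 699 and 803 on irradiated eIF4E arrays. Its groups did not overlap either. NUP107, a core subunit of the Y complex, read 1459, 1445 and 1359 on untreated IgG arrays, 2541, 1408 and 1637 on irradiated IgG arrays, 808, 924 and 753 on untreated eIF4E arrays and 990.0, 843 and 747 on irradiated eIF4E arrays. It was lower, at −0.92 ± 0.13 (SE), NUP133 at −0.93 ± 0.12 and NUP43 at −0.73 ± 0.12. NUP37, a small subunit of the same complex, went the other way, with 1458, 1347 and 1292 on untreated IgG arrays, 1371, 1235 and 1239 on irradiated IgG arrays, 2480.4, 2335 and 2349 on untreated eIF4E arrays and 2632, 2486 and 2593 on irradiated eIF4E arrays. Its 4 groups were each tight and the antibodies did not overlap, at 0.90 ± 0.09 (SE), a factor of 1.86. NUP85, another subunit, was higher by 0.29 ± 0.11 (SE) with overlapping arrays.

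NUP160, a subunit of the Y complex, gave opposite answers from its probe sets. The brightest probe set read 563, 686 and 694 on untreated IgG arrays, 1128, 670.1 and 682 on irradiated IgG arrays, 248, 356 and 230.2 on untreated eIF4E arrays and 399.9, 310.4 and 219.6 on irradiated eIF4E arrays, lower, at −1.28 ± 0.17 (SE). Another read 99.2, 94.0 and 103 on untreated IgG arrays, 92.5, 127 and 103 on irradiated IgG arrays, 251, 285 and 228 on untreated eIF4E arrays and 290.1, 269 and 287 on irradiated eIF4E arrays, higher by 1.25 ± 0.13 (SE). The third was higher too, by 1.01 ± 0.22 (SE). In none of the 3 did the arrays of the antibodies overlap. The direction of NUP160 thus depends on the probe set, and the mean of its probe sets gave 0.33 in place of −1.28.

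Of 5 importin alpha adapters measured, 4 were lower, where 38.2% of all genes were, and KPNA2 did not pass. KPNA4 was the lowest of them, with 205, 197 and 212 on untreated IgG arrays, 236, 197 and 264 on irradiated IgG arrays, 38.7, 37.9 and 41.4 on untreated eIF4E arrays and 37.2, 53.1 and 27.9 on irradiated eIF4E arrays. All its eIF4E arrays were below the filter's 57.4, so it passed the filter through its IgG signal and had to differ, and its value of −2.09 ± 0.17 (SE) is a description only. KPNA6, KPNA1 and KPNA3 were lower, at −1.77 ± 0.12, −1.38 ± 0.15 and −1.20 ± 0.11 (SE). KPNA2, the adapter known to be high in dividing cells, read 5955, 5438 and 5317 on untreated IgG arrays, 9199.7, 6103 and 6623 on irradiated IgG arrays, 6556, 6009 and 5652 on untreated eIF4E arrays and 9027, 7550.3 and 7749.9 on irradiated eIF4E arrays. The groups of both antibodies overlapped and the difference was 0.15 ± 0.10 (SE), which was past the threshold at 0.23 without irradiated IgG replicate 1, at 0.19 without replicate 1 of every group and at 0.25 with arrays centred on their median.

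**Figure D2:**
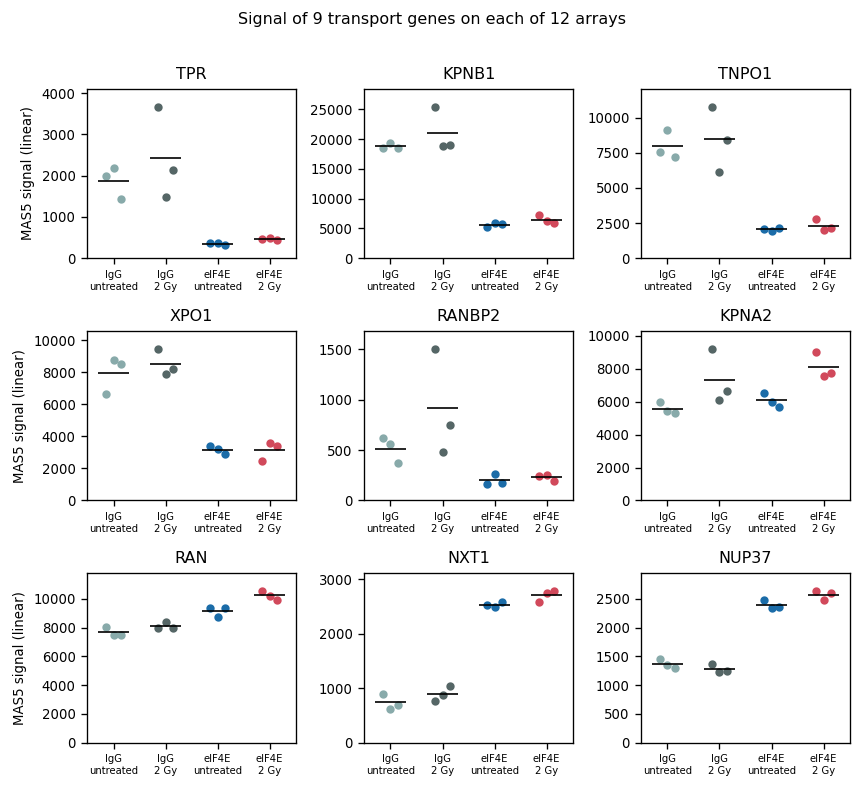
Deposited linear signal of 9 transport genes on each of the 12 arrays, with points for arrays and a line at the mean of each group of 3. TPR, KPNB1, TNPO1, XPO1 and RANBP2 lie lower on all eIF4E arrays, NXT1, NUP37 and RAN lie higher, KPNA2 overlaps, and irradiated IgG replicate 1 is the highest array for TPR (3669), KPNB1 (25419), TNPO1 (10767), XPO1 (9452), RANBP2 (1504) and KPNA2 (9200).

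Among the 9 measured import receptors of the importin beta family, 8 were lower, where 38.2% of all genes were, and IPO13 did not pass. KPNB1, importin beta itself and the brightest member, read 18508, 19369.6 and 18494 on untreated IgG arrays, 25419, 18777 and 19022 on irradiated IgG arrays, 5255, 5859 and 5717 on untreated eIF4E arrays and 7219.6, 6242 and 5991 on irradiated eIF4E arrays. The lowest IgG array was at more than 2 times the highest eIF4E array, and the difference was −1.72 ± 0.09 (SE), a factor of 3.28. TNPO1, transportin, which imports RNA-binding proteins such as those of the hnRNP family, read 7548, 9147 and 7168 on untreated IgG arrays, 10767, 6123 and 8434 on irradiated IgG arrays, 2079, 1968 and 2167 on untreated eIF4E arrays and 2786, 2024 and 2157 on irradiated eIF4E arrays. It was the lowest of the receptors, at −1.88 ± 0.13 (SE). IPO7, which imports ribosomal proteins and histone H1 and has the pyrimidine start shown above, read 2859, 2236 and 2351 on untreated IgG arrays and 3021, 1979.8 and 2594 on irradiated IgG arrays, and 1271, 1164 and 1133 on untreated eIF4E arrays and 1405, 1204 and 1107 on irradiated eIF4E arrays. Its groups stood apart at −1.03 ± 0.12 (SE), and NUP133, the other member with that start, was also lower. IPO13 read 222, 158 and 159 on untreated IgG arrays, 148, 190.3 and 132 on irradiated IgG arrays, 94.6, 226 and 256 on untreated eIF4E arrays and 191, 247 and 232 on irradiated eIF4E arrays. Its untreated eIF4E arrays spread from the lowest to the highest value of the gene, and the difference of 0.24 ± 0.20 (SE) was past the threshold at 0.44 without untreated eIF4E replicate 1.

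The export receptors were lower for 4 of 6 members, where 38.2% of all genes were lower, with a median difference of −0.44. XPO1, the receptor for leucine-rich export signals, read 6616, 8750.4 and 8518 on untreated IgG arrays, 9452, 7912 and 8184 on irradiated IgG arrays, 3391, 3216 and 2869.8 on untreated eIF4E arrays and 2479, 3588 and 3371 on irradiated eIF4E arrays. No arrays overlapped and the difference was −1.38 ± 0.11 (SE), a factor of 2.61. CSE1L, which returns importin alpha to the cytoplasm, read 9258, 7843 and 8005 on untreated IgG arrays and 9846, 8159 and 8739.5 on irradiated IgG arrays, and 4483, 4539 and 4436 on untreated eIF4E arrays and 5279, 4766 and 4690.0 on irradiated eIF4E arrays, lower, at −0.87 ± 0.09 (SE). Its IgG and eIF4E groups were each tight and far apart. XPOT, which exports transfer RNA, read 1634, 1773 and 1738 on untreated IgG arrays, 1577, 1878 and 1656 on irradiated IgG arrays, 1534, 1411 and 1412 on untreated eIF4E arrays and 1342, 1366 and 1375 on irradiated eIF4E arrays. The groups were separate by a small margin, at −0.28 ± 0.09 (SE), which was −0.17 and no longer past the threshold with arrays centred on their median. XPO7 read 458, 617 and 518 on untreated IgG arrays, 394, 655 and 629 on irradiated IgG arrays, 562, 474 and 565 on untreated eIF4E arrays and 573, 461 and 631 on irradiated eIF4E arrays. These overlapped throughout, with a difference of 0.01 ± 0.14 (SE) that ran from −0.10 to 0.075 as arrays were left out in turn.

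The RAN GTPase and NXT1 were both higher on eIF4E arrays. RAN read 8029, 7489.9 and 7468 on untreated IgG arrays, 7981, 8398 and 7988 on irradiated IgG arrays, 9398, 8760.1 and 9339 on untreated eIF4E arrays and 10534, 10229.8 and 9942 on irradiated eIF4E arrays. The lowest eIF4E array was above the highest IgG array and the difference was 0.30 ± 0.08 (SE), but its second probe set went the other way, at −0.35 ± 0.10 (SE), and the mean of both gave −0.026. NXT1, which binds NXF1 to form the main mRNA export receptor, read 898, 618 and 700.3 on untreated IgG arrays, 756, 878 and 1033 on irradiated IgG arrays, 2521, 2488 and 2589.8 on untreated eIF4E arrays and 2588, 2744 and 2784 on irradiated eIF4E arrays. Every eIF4E array was at more than 2 times the highest IgG array, and the difference was 1.69 ± 0.11 (SE), a factor of 3.22. NUP62CL, a gene that resembles the end of NUP62 and was taken in by its name, read 94.5, 70.2 and 153 on untreated IgG arrays and 172, 83.7 and 115 on irradiated IgG arrays, and 106, 114 and 113 on untreated eIF4E arrays and 72.2, 87.2 and 130.0 on irradiated eIF4E arrays. It overlapped and did not pass, at −0.09 ± 0.21 (SE), a sign that turned to 0.016 with quantile normalization.

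The antibody differences had the same sign in untreated and irradiated cells for 43 of the 44 members. That count, and the counts below of members past the threshold in both treatments, were not made for all genes. They are therefore not read as a trait of the members. In untreated cells 28 members were lower and 4 higher (63.6% and 9.09%), where 31.7% of all genes were lower and 27.2% were higher. In irradiated cells 31 were lower and 4 higher (70.5% and 9.09%), where 32.3% of all genes were lower and 27.2% were higher. The same 28 were lower and the same 4 (NUP42, RAN, NXT1 and NUP37) higher in both, 9 passed in neither, and XPOT, NUP93 and NUP188 passed in irradiated cells alone, where the test of the difference between treatments did not pass. The median difference moved from −0.81 in untreated to −1.02 in irradiated cells, and the latter was −0.80 without irradiated IgG replicate 1. No array is common to both comparisons, and that replicate enters the irradiated one.

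Several members had more than 1 probe set listed under their symbol, and which stretch or transcript each one reads was not analysed here. Tested one by one, 72 of 89 member probe sets passed, 65 lower and 7 higher. Of all 10566 single-gene probe sets 69.8% passed in either direction, 4050 lower and 3325 higher. All 6 probe sets of KPNB1 were lower (−2.02 to −1.59), as were all 5 of TNPO1 (−2.27 to −1.50), all 4 of IPO7 (−1.93 to −0.96) and all 3 of RANBP2 (−1.63 to −1.03). Others were uneven in size: those of KPNA1 ran from −1.82 to 0.04, of KPNA6 from −1.77 to 0.225, of NUP50 from −1.34 to 0.15, the 2 of TPR stood at −2.29 and −1.04, those of TNPO2 at −1.47 and −0.46 and those of NUP214 at −1.05 and −0.08, and the 2 of KPNA4 stood at −2.09 and −0.34. KPNA2's second probe set passed at −0.59 ± 0.10 (SE) where its brightest did not. Among the 18 members with more than 1 probe set past the threshold, NUP160 and RAN had them in opposite directions, which is 11.1%, against 234 of 1419 genes on the array (16.5%).

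**Figure D3:**
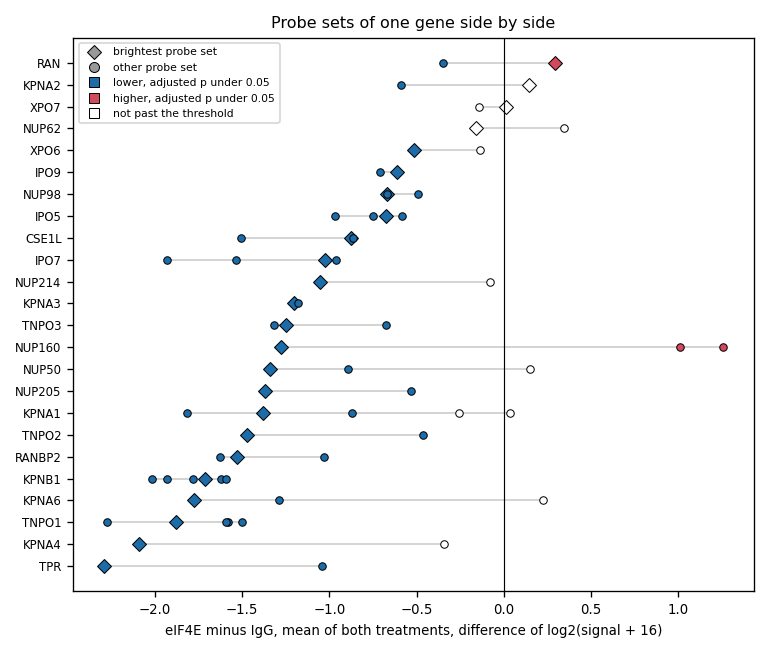
Difference between eIF4E and IgG precipitates, averaged over both treatments on the log2(signal + 16) scale, for each probe set of the 24 members with several above the filter. Diamonds mark the brightest probe set of a gene, filled blue symbols are lower and filled red symbols higher at an adjusted p under 0.05 and open symbols did not pass, with NUP160 spanning −1.28 to 1.25 and RAN −0.35 to 0.30.

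Across genes, those with a longer genomic span tended to be lower on eIF4E arrays, in the members and on the whole array. The span runs from the listed start to the listed end of a gene and is not the length of its mRNA. That of RANBP2, 1122820 bases, was the longest of the members and was used as listed. Spearman's rho between the genomic span of a gene and its mean antibody difference was −0.36 over the 44 members and −0.47 over 7176 genes, and between mean signal and the difference it was 0.17 and 0.04. These points share the same 12 arrays and are not independent replicates. The members' median span was 62120 bases and that of all genes 31372 bases.

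Irradiation moved no member past the threshold in either precipitate, and none of the array's genes. On eIF4E arrays 0 of the 44 members passed (limma, adjusted p under 0.05), where the share of all 7178 genes was 0%, and at an unadjusted p under 0.05 there was 1 member of 44 and 82 of all genes. The median of the members was 0.05 with a range of −0.24 to 0.41, but the median ran from 0.0066 without untreated eIF4E replicate 3 to 0.081 without untreated eIF4E replicate 2. It was 0.015 without irradiated eIF4E replicate 1, 0.025 without untreated eIF4E replicate 1 and −0.0022 without replicate 1 of every group. The SE of a single gene was 0.17 in the median (0.11 to 0.31). With array quality weights, still 0 members passed, and 2 genes of the array did. Counted by arrays that do not overlap, 12 of the 44 members separated irradiated from untreated eIF4E arrays (9 higher and 3 lower). Of all genes 9.4% separated (348 higher and 327 lower). The 9 were TPR, CSE1L, RAN, KPNA2, KPNB1, NUP188, NUP205, NUP37 and NUP85, and the 3 were XPOT, KPNA3 and IPO4. The second probe sets of TPR and RAN separated the other way, at −0.43 ± 0.25 and −0.11 ± 0.14 (SE), against 0.38 and 0.16 for their brightest. Other probe sets of KPNA3, CSE1L and KPNB1 had the opposite sign with overlapping arrays, at 0.16 ± 0.19, −0.07 ± 0.15 and −0.23 ± 0.20 (SE). Further ones of CSE1L and KPNB1 separated the same way as the brightest, at 0.17 ± 0.13 and 0.21 ± 0.12 (SE).

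KPNA2, whose 12 values are given above, had the smallest p on eIF4E arrays. All 3 irradiated eIF4E arrays were above all 3 untreated ones, by 0.41 ± 0.15 (SE), with an adjusted p of 1 in limma and 0.0663 with array quality weights. Its second probe set gave 0.07 ± 0.14 (SE), with overlapping arrays. NUP155 and TPR followed, at 0.25 ± 0.15 and 0.38 ± 0.24 (SE), both with an adjusted p of 1 in limma. NUP155, an inner ring subunit, read 449, 439 and 492 on untreated eIF4E arrays and 592, 488 and 578 on irradiated ones, and these overlapped.

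**Figure D4:**
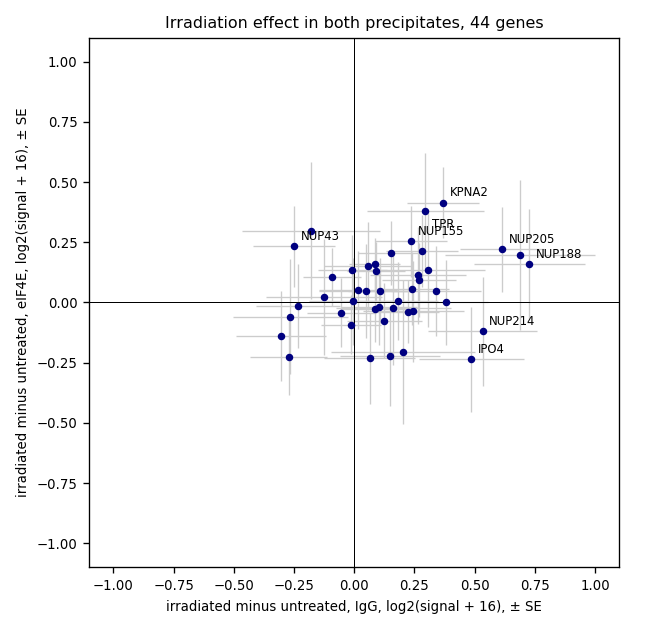
Irradiated minus untreated difference on the log2(signal + 16) scale in IgG precipitates (horizontal) and eIF4E precipitates (vertical) for each of 44 transport genes, with the SE of the fit as bars. No point passed the threshold on either axis, and the points farthest right are NUP188 (0.73), RANBP2 (0.69) and NUP205 (0.61), all high on irradiated IgG replicate 1.

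On IgG arrays 0 of 44 members passed too (limma, adjusted p under 0.05), against 0% of all genes, and 7 members and 475 genes had an unadjusted p under 0.05. The median of the members was 0.14 (−0.30 to 0.73), 0.05 without irradiated IgG replicate 1 and 0.04 without replicate 1 of every group. The smallest p belonged to NUP205 at 0.61 ± 0.18 (SE), NUP188 at 0.73 ± 0.23 and KPNA2 at 0.37 ± 0.15, with adjusted p of 0.614, 0.619 and 0.643 in limma. NUP188, a large inner ring scaffold protein, read 336, 238 and 282 on untreated IgG arrays and 762, 397 and 361 on irradiated ones, 192, 193 and 189 on untreated eIF4E arrays and 220.3, 209.7 and 215 on irradiated ones. The irradiated arrays were above the untreated ones in both precipitates, and irradiated IgG replicate 1 was far above the other 2. Without that array the IgG differences of NUP205, NUP188 and KPNA2 were 0.38, 0.40 and 0.19. The second probe set of NUP205 gave 0.04 on IgG arrays with all arrays in. Irradiated and untreated IgG arrays did not overlap for 6 of the 44 members (XPO6, KPNA2, NUP93, NUP188 and NUP205 higher, NUP98 lower). Of all genes 8.68% did not overlap (325 higher and 298 lower).

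The difference between both irradiation effects, which takes the IgG background from the eIF4E arrays, passed for 0 of 44 members (limma, adjusted p under 0.05) and for 0% of all genes, and 1 member and 216 genes had an unadjusted p under 0.05. The members nearest to the threshold were IPO4 at −0.72 ± 0.31 (SE), NUP214 at −0.65 ± 0.32 and NUP43 at 0.48 ± 0.24, each with an adjusted p of 0.999 in limma. IPO4, an import receptor for histones and ribosomal proteins, read 398, 385 and 307 on untreated IgG arrays, 752, 499 and 357 on irradiated IgG arrays, 185, 169 and 169 on untreated eIF4E arrays and 145, 145 and 146 on irradiated eIF4E arrays. Its eIF4E arrays were lower after irradiation, its irradiated IgG arrays spread over a factor of 2, and without irradiated IgG replicate 1 the difference of effects was −0.45. NUP43 read 2373, 2466 and 2276 on untreated IgG arrays, 1441, 2259 and 2420.1 on irradiated IgG arrays, 1133, 1317 and 1161 on untreated eIF4E arrays and 1491, 1449 and 1308 on irradiated eIF4E arrays. Here irradiated IgG replicate 1 was the low array, 1441, and without it the difference of effects was 0.25.

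Other genes of nuclear transport and the nuclear envelope, listed by function and outside the name rule, went both ways in the antibody comparison. Of 34 measured, 16 were lower and 11 higher (47.1% and 32.4%), with a median of −0.16. Among all 7178 genes 38.2% were lower and 32.5% higher, so their share higher was that of the array. BANF1, which ties chromatin to the envelope, was the highest, with 535, 496 and 488 on untreated IgG arrays, 425, 723 and 465 on irradiated IgG arrays, 4395, 4311 and 5414 on untreated eIF4E arrays and 4266, 3776 and 3939 on irradiated eIF4E arrays. All its eIF4E arrays were above all IgG arrays, by 3.03 ± 0.12 (SE). RANBP1, a cofactor that helps RAN hydrolyse GTP in the cytoplasm, was next at 1.32 ± 0.09 (SE). THOC2, a scaffold of the mRNA export complex THO, was the lowest at −1.94 ± 0.14 (SE), with 1659, 1244 and 1339 on untreated IgG arrays and 2406, 1438 and 1322 on irradiated IgG arrays, and 394, 381 and 329 on untreated eIF4E arrays and 422, 394 and 408 on irradiated eIF4E arrays. AHCTF1, known as ELYS, which seeds pore assembly on chromatin, was at −1.23 ± 0.17 (SE). After irradiation none of the 34 passed in either precipitate (limma, adjusted p under 0.05), and none of all genes did. An unadjusted p under 0.05 was reached by 0 and 4 of them on eIF4E and IgG arrays, against 82 and 475 of 7178 genes.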

How the data were processed

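RNA from 12 precipitates of MDA-MB-231 cells was hybridised to Affymetrix arrays, 1 per precipitate. The deposited values are intensities on a linear scale, which the authors made with MAS5 per the submitters' processing notes (version not given in the sources used here). Each array's trimmed mean (2% of probe sets left out at either end) is 500.2, so values are relative within an array, and the number of arrays limits their precision.

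Of 22277 probe sets, 62 were controls, 1043 listed several genes, 2108 listed none and 19064 listed a single gene, 19052 of which took their current symbol by gene identifier from RefSeq's GRCh38.p14 table. A gene was read from its brightest probe set, avoiding the _x_at type if possible, and genes below the 40th percentile of mean log2 signal were dropped. limma 3.58.1 (R 4.3.3; lmFit, contrasts.fit, and eBayes with its trend option) fitted 4 group means to log2(signal + 16) over all 12 arrays. P-values were adjusted by Benjamini-Hochberg over the 7178 genes, and called under 0.05. Dim genes appear to change less than they did on this scale. The fit was tested on simulated data with known changes, and matplotlib 3.10.9 drew the figures.

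The members, the role groups and the gene lists were chosen with earlier results of these data known. Named genes were a fixed set of 18 (NXF1 among them, without a value), the ends of each role group, members with probe sets in opposite directions, the 3 smallest p of each irradiation comparison and the ends of the other transport list. Members named beside them were chosen after their values were seen.

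Pairing by replicate number was checked by correlating, across genes, how same-numbered arrays departed from their group means. Irradiated and untreated eIF4E arrays gave 0.374, 0.208 and 0.181, all over the limit of 0.1 used for pairing. The labels name no shared cultures, and pairs cannot be told apart from a replicate 1 that stands apart in both groups. The bioB over bioC ratio given above separated each replicate number from the others, and its part in these correlations was not tested. All values in the report come from the fit without a replicate block, and the fit with it is given under the alternatives. Each of the other 5 pairs of groups had at least 1 value under 0.1. Alternatives changed the pseudocount (1 or 64), the filter (none, or the 60th percentile), the scaling (quantile, or centring on the median), the variance model (no trend, array weights, a replicate block, only the groups compared), the summary of probe sets (their mean, or each by itself) and the arrays used (without each in turn, or without replicate 1 of every group).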

Additional observations from a re-analysis of the deposited data

How the results depend on the processing

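The count of members past the threshold stayed within 1.5 times of its value in all 6 comparisons under the alternatives run, except where each probe set was tested by itself. That setting counts 89 probe sets in place of 44 genes and gave 61 in untreated cells, 67 in irradiated cells and 72 for their mean. With a replicate block the counts were 33, 36 and 37 of 44 and 74 of 89 probe sets, and 0 in each irradiation comparison; it changed no named call. Leaving out each array in turn gave 30 to 35, 32 to 37 and 35 to 38 genes, 69 to 75 probe sets and 0 in each irradiation comparison. Median centring moved the median of all genes in untreated cells from −0.08 to 0.04 and that of the members from −0.81 to −0.68. Signs reversed for 6 named genes in the mean antibody comparison. The mean of a gene's probe sets gave −0.22 for KPNA2, 0.33 for NUP160, 0.093 for NUP62, −0.026 for RAN and −0.066 for XPO7. For NUP62CL, quantile normalization gave 0.016, array quality weights 0.046, the omission of replicate 1 of every group 0.099, and the omission of each array −0.20 to 0.041. For XPO7, array weights gave −0.033, the omission of replicate 1 of every group −0.18, and the omission of each array −0.10 to 0.075. Past the threshold only under an alternative were IPO13 (0.46 with array weights, 0.55 without replicate 1 of every group, 0.44 without untreated eIF4E replicate 1), KPNA2 and NUP62 as given above, and XPOT lost its call with median centring (−0.17). Of these, the probe set means differ by construction, since they mix probe sets of unlike sign, and the cause of the others was not tested.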
